A study of Mus musculus with 24 samples.

Results

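Receptors, adaptors and markers of macrophages were followed across dietary curcumin and experimental colitis in mouse colon. The set holds 10 genes, namely Tyrobp, Fcer1g, Fcgr2b, Fcgr3, Csf1r, Cd68, Adgre1, Cd14, Itgb2 and Lyz2, and its members are all probe sets that the platform annotation gives to these symbols alone. The arrays name 18193 genes in this way. There were 16 member probe sets among the 45137 of both array types, 15 on the 430A and 1 on the 430B array. Fcgr2b had 5 probe sets, Csf1r had 3, and the other 8 genes had 1 each. A filter on low signal kept all 15 on 430A and removed the 1 on 430B, a probe set of Fcgr2b.

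The study profiled whole colon of BALB/c mice aged 6 to 8 weeks on Affymetrix MOE430 arrays, with 12 numbered samples each hybridised to a 430A and a 430B array. The mice ate standard chow or chow with 2% curcumin, a polyphenol of turmeric, starting 2 days before an enema on day 0, and colons were taken on day 7. The enema held either control solution or TNBS (trinitrobenzene sulfonic acid), a hapten that induces colitis, so that diet and enema give 4 groups of 3 samples: standard-diet control, standard-diet TNBS, curcumin-diet control and curcumin-diet TNBS. The comparisons ask what TNBS changed on each diet and what curcumin changed with each enema. No genotype other than the BALB/c strain is given for any group, although the protocol also mentions wild-type littermates. Each RNA pool came from 3 mice, and the labels leave unsaid whether a group's 3 samples are 3 pools or repeats of 1. The p-values therefore measure the spread between these samples, which may be technical.

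Tyrobp (DAP12) and Fcer1g (the Fc receptor gamma chain) are small membrane adaptors whose cytoplasmic activation motifs recruit the kinase Syk when a partner receptor is engaged. Fcgr3 encodes an activating receptor for IgG that signals through the gamma chain, and Fcgr2b encodes the inhibitory one. Csf1r is the receptor for the macrophage growth factors CSF1 and IL-34, Cd14 the coreceptor that hands lipopolysaccharide to TLR4, Itgb2 the beta chain of the leukocyte integrins, Cd68 an endosomal sialomucin, Adgre1 the antigen F4/80 and Lyz2 the M lysozyme. Resident macrophages of the gut wall are replenished by blood monocytes, and inflamed colon takes up more of them. Several of these genes, among them Tyrobp, Fcer1g, Fcgr3, Itgb2 and Lyz2, are also expressed by neutrophils, whereas Csf1r and Adgre1 are more closely tied to the monocyte and macrophage lineage.

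Many myeloid promoters lack a TATA box and are bound by the transcription factor PU.1, whose sites contain the core GGAA. RefSeq promoters (build GRCm38.p6) were searched for 5 of the 10 genes, Fcer1g, Fcgr2b, Fcgr3, Cd68 and Lyz2. Those of the other members were not searched, so the counts here do not describe the whole set. The 250 bases before the start were searched on both strands for GAGGAA and GGAAGT, words of the PU.1 consensus that can overlap each other by sharing GGAA. Either word was found in 4 of these 5 promoters, against 36.7% of all 32851 promoters in the table. GAGGAA was in 2 of the 5, against 23.3% of all, and GGAAGT in 2 of the 5, against 19.7%. The 4 promoters with a match are shown, and that of Fcer1g, which held neither word, is left out. Capitals mark a match or its reverse complement, and a match is a description of the letters, not evidence of binding. The sequences run 5′ to 3′ on the strand of the gene, which is the minus strand in all 4. They lie at chr1:170976072-170976321 (Fcgr2b), chr1:171059404-171059653 (the first of 2 entries of Fcgr3), chr11:69666171-69666420 (Cd68) and chr10:117282273-117282522 (Lyz2).
Fcgr2b: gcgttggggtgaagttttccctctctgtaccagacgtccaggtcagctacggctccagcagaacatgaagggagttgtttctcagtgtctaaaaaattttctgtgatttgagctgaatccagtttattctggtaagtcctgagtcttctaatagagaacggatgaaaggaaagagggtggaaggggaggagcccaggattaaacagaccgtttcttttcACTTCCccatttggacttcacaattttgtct
Fcgr3: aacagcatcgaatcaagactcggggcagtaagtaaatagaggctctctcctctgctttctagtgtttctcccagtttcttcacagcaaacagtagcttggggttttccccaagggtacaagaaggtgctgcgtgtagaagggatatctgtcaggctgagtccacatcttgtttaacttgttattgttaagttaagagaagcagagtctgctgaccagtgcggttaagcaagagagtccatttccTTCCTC
Cd68: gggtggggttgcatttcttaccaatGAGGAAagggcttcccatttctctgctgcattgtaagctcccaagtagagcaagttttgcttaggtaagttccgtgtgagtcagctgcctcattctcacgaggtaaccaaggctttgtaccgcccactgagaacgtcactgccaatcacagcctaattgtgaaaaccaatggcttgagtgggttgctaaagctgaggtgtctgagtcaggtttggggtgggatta
Lyz2: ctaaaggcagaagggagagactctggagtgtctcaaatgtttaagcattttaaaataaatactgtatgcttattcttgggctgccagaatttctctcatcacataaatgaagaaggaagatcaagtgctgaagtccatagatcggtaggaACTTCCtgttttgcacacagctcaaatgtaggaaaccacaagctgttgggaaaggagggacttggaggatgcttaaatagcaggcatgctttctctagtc
The word in Fcgr3 began at position -6 from the start and the word in Fcgr2b at -31, both read on the opposite strand. In Lyz2 it began at -100, also on the opposite strand, and in Cd68 at -225 on the strand of the gene.

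Values are the deposited array signals, in array units on a linear scale, and differences are in log2(signal + 16) ± standard error, which understates the change of low signals. They were tested with limma over all 13575 probe sets kept on 430A, and the threshold was a Benjamini-Hochberg adjusted p of 0.05. The 430A arrays fell into 2 sets of 6 along their first principal component, which carried 32.0% of the variance. Array set 1 holds 1 or 2 arrays of each group and array set 2 the others. The labels name no batch, so the sets come from the data alone, and differences are also given from a model with an array-set term and within each set. That term was read from the values it is fitted to, and its p-values do not count this choice. Among the 430B arrays, those of replicates 2 and 3 of the curcumin-diet TNBS group lay far from the other 10. Precision is limited by the number of arrays. The median standard error of a difference between groups was 0.20 on 430A.

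Each of the 10 genes had its highest group mean in the standard-diet TNBS samples, taking the probe set with the highest signal for each gene. The lowest mean was in the standard-diet control group for 4 genes, in the curcumin-diet control group for 4 and in the curcumin-diet TNBS group for 2. With TNBS on the standard diet, all 15 tested probe sets were above the control group, by a median of 0.42 in log2, against a median of -0.02 over all probe sets tested. With TNBS on the curcumin diet, 11 of 15 were above control, against 49.0% of all probe sets, by a median of 0.14, against -0.004 over all. By the 1 probe set with the highest signal for each gene, 6 of the 10 genes were above control there. Between the diets after TNBS, 14 of 15 were lower with curcumin, against 48.9% of all probe sets, by a median difference of -0.34. Because the members were chosen with earlier results of these data known, these counts are a description and not a test. In the model as designed, 0 of 15 passed the threshold in any comparison, so none of these genes is called changed there. With an array-set term 1 probe set passed, that of Tyrobp with TNBS on the standard diet, and that call was lost under several other settings. In whole colon, fewer cells of a type and less RNA per cell cannot be told apart.

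**Figure D1:**
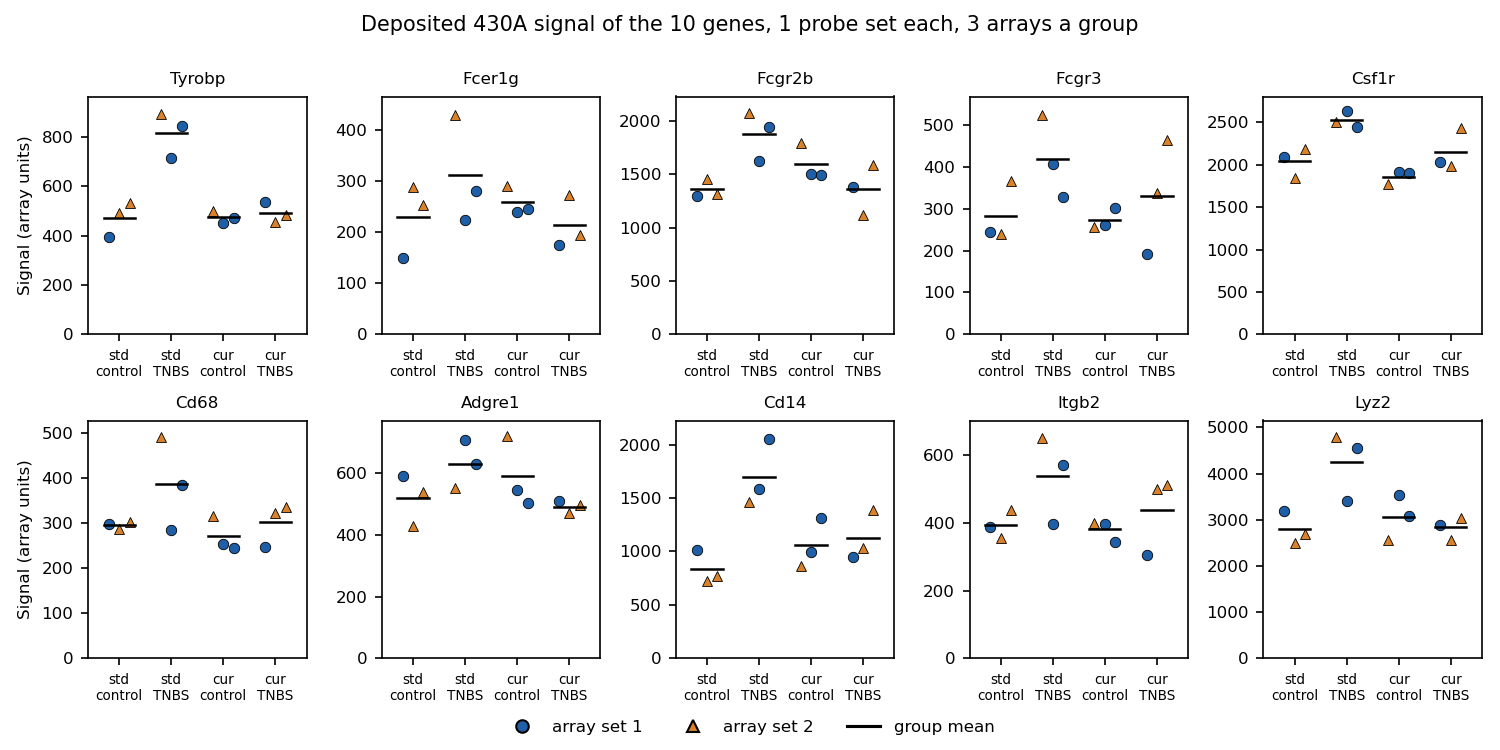
Deposited 430A signal (linear array units, y axis) of the 10 genes, 1 probe set each, in the 4 groups on the x axis (std, standard diet; cur, curcumin diet). Points are the 3 arrays of a group, marked by array set, and lines are group means. The standard-diet TNBS mean is the highest in all 10 panels, while single arrays overlap other groups in several of them, as in Fcer1g, Cd68 and Itgb2.

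Of the adaptors, Tyrobp separated the standard-diet TNBS samples from all others. It had signals of 392.9, 493.1 and 532.4 in the standard-diet control samples and of 892.0, 712.7 and 844.4 in the standard-diet TNBS samples. The curcumin-diet control samples were at 500.8, 451.3 and 471.3, and the curcumin-diet TNBS samples at 537.2, 452.8 and 483.6. All 3 standard-diet TNBS samples lay above the other 9, which overlapped one another. The difference of TNBS from control on the standard diet was 0.77 ± 0.15, or 1.71-fold, with adjusted p = 0.0974 in limma. An array-set term made it 0.81 ± 0.14 with adjusted p = 0.0457 in limma, past the threshold, and it was 0.95 within set 1 and 0.78 within set 2. Of all probe sets, 0.464% passed with that term. The call held in 4 of the 12 runs that each left out 1 sample. It was lost without any 1 of the 3 standard-diet control samples, without standard-diet TNBS replicate 1 or 3, without curcumin-diet control replicate 2 and without curcumin-diet TNBS replicate 2 or 3, with adjusted p up to 0.301 in limma. It was also lost with quantile normalization (adjusted p = 0.0583), median centring (0.0527) and no intensity trend (0.0508). On the curcumin diet the Tyrobp difference was 0.05 ± 0.15, with a 95% confidence interval of -0.27 to 0.37. After TNBS, curcumin-diet samples were lower than standard-diet samples by a difference of -0.71 ± 0.15, with adjusted p = 0.139 in limma, or -0.75 ± 0.14 and adjusted p = 0.0538 with an array-set term.

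Fcer1g, the other adaptor, was less regular. Its signals were 149.1, 288.1 and 254.2 in the standard-diet control samples and 429.8, 224.1 and 280.8 in the standard-diet TNBS samples. They were 291.3, 239.6 and 244.8 in the curcumin-diet control samples and 174.9, 273.5 and 194.0 in the curcumin-diet TNBS samples. One standard-diet TNBS sample stood high and the other 2 lay among the controls, so the groups overlapped in each comparison. TNBS against control was 0.41 ± 0.28 on the standard diet (adjusted p = 0.734 in limma) and -0.27 ± 0.28 on the curcumin diet. The standard error was smaller with an array-set term, where the standard-diet difference was 0.59 ± 0.19 and the adjusted p was 0.179.

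Among the Fc receptors, Fcgr2b could be read on several probe sets. The one with the highest signal, 1435476_a_at, gave 1301.5, 1457.8 and 1317.7 in the standard-diet control samples and 2076.7, 1625.7 and 1948.0 in the standard-diet TNBS samples. The curcumin-diet control samples were at 1793.2, 1505.7 and 1492.7 and the curcumin-diet TNBS samples at 1385.7, 1122.2 and 1590.9. The TNBS samples of the standard diet lay above those of the standard-diet control and of the curcumin-diet TNBS group without overlap. The curcumin-diet control samples also lay above the standard-diet control samples without overlap, by 0.23 ± 0.15, the only one of 15 probe sets to separate upwards in that comparison, against 3.12% of all probe sets. TNBS on the standard diet gave 0.46 ± 0.15 (adjusted p = 0.317 in limma) and TNBS on the curcumin diet -0.23 ± 0.15. Curcumin against standard diet after TNBS gave -0.47 ± 0.15 (adjusted p = 0.291 in limma).

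The other 3 tested probe sets of Fcgr2b pointed the same way for TNBS on the standard diet and differed on the curcumin diet. Probe set 1435477_s_at was at 430.9, 421.1 and 593.3 in standard-diet control samples and at 1048.1, 751.1 and 779.9 in standard-diet TNBS samples, which did not overlap, with a difference of 0.82 ± 0.21 (adjusted p = 0.182 in limma). It was at 380.6, 457.8 and 656.4 in the curcumin-diet control samples and at 698.5, 638.4 and 570.3 in the curcumin-diet TNBS samples. For 1451941_a_at the standard-diet difference was 0.62 ± 0.20 and for 1455332_x_at 0.30 ± 0.24. On the curcumin diet these 3 were at 0.37 ± 0.21, 0.24 ± 0.20 and 0.31 ± 0.24, opposite in sign to the probe set with the highest signal, and none of the 4 passed. The suffixes s and x mark probe sets whose probes may match other transcripts, and the IgG-binding parts of Fcgr2b and Fcgr3 are close in sequence, so signal shared between the receptors cannot be told apart there.

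The 430B probe set of Fcgr2b, 1447622_at, lay below the filter and was not tested. It read 33.0, 20.2 and 29.7 in standard-diet control samples, 40.3, 19.3 and 30.9 in standard-diet TNBS samples, and 106.6, 10.2 and 4.4 in curcumin-diet control samples. In the curcumin-diet TNBS samples it read 119.3, 91.4 and 160.8, above all samples of the standard diet and thus opposite to the 430A probe sets. The arrays with 91.4 and 160.8 are those that stand apart on 430B, and the part of this in the result was not tested.

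Fcgr3 had signals of 244.8, 240.1 and 365.1 in the standard-diet control samples and of 524.4, 406.1 and 327.3 in the standard-diet TNBS samples. The curcumin-diet samples were at 255.5, 260.5 and 301.4 with control enema and at 192.6, 337.8 and 463.7 with TNBS. The groups overlapped in every comparison, and the curcumin-diet TNBS samples were the most scattered. The standard-diet TNBS difference was 0.54 ± 0.28 (adjusted p = 0.615 in limma), and the difference between diets after TNBS was -0.38 ± 0.28.

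**Figure D2:**
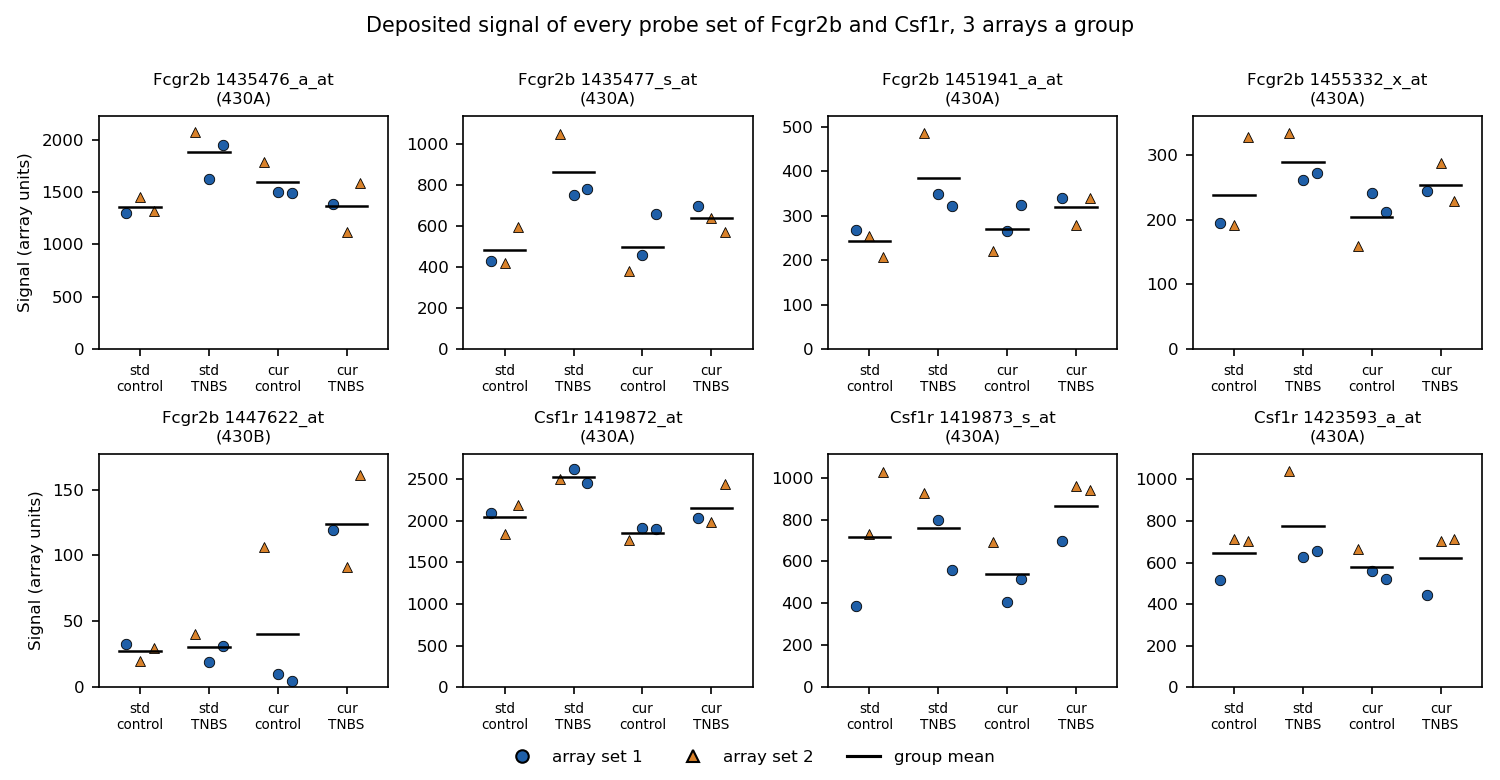
Deposited signal (linear array units, y axis) of the 5 probe sets of Fcgr2b and the 3 of Csf1r in the 4 groups (std, standard diet; cur, curcumin diet), with 3 arrays a group marked by the 430A array set of their sample and lines at group means. The probe sets of 1 gene do not share 1 pattern, and the 430B probe set of Fcgr2b, 1447622_at, is highest in curcumin-diet TNBS, at 91.4 to 160.8.

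Csf1r, the growth factor receptor, gave its clearest pattern on the probe set with the highest signal, 1419872_at. Signals were 2096.7, 1843.7 and 2187.0 in the standard-diet control samples and 2503.4, 2629.7 and 2451.8 in the standard-diet TNBS samples. They were 1770.8, 1909.9 and 1900.9 in the curcumin-diet control samples and 2036.3, 1985.8 and 2439.8 in the curcumin-diet TNBS samples. On both diets the TNBS samples lay above the control samples without overlap. The standard-diet TNBS samples also lay above the curcumin-diet TNBS samples, by a narrow margin. The differences were small, 0.31 ± 0.11 on the standard diet (adjusted p = 0.394 in limma) and 0.20 ± 0.11 on the curcumin diet. Between the diets after TNBS the difference was -0.24 ± 0.11, and the interaction, the TNBS difference on curcumin less that on the standard diet, was -0.10 ± 0.16.

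The other probe sets of Csf1r varied with the array sets, and their standard errors were smaller with an array-set term. On 1419873_s_at, the standard-diet control samples ran from 385.2 in array set 1 to 733.5 and 1028.4 in array set 2, and the standard-diet TNBS samples were at 925.2 (set 2), 798.1 and 558.4 (set 1). The curcumin-diet samples were at 693.6, 406.8 and 518.4 with control enema and at 695.6, 962.6 and 940.1 with TNBS. The curcumin-diet groups did not overlap, with a TNBS difference of 0.68 ± 0.32, and this was the only tested probe set that was not lower with curcumin after TNBS, at 0.20 ± 0.32. It became -0.02 ± 0.20 with an array-set term. On 1423593_a_at, the standard-diet TNBS difference was 0.24 ± 0.23, or 0.41 ± 0.12 with that term, and curcumin against standard diet after TNBS was -0.31 ± 0.23, or -0.48 ± 0.12 with adjusted p = 0.0952 in limma.

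Cd14, which delivers bacterial lipopolysaccharide to its signalling receptor, showed the largest difference of the 10 genes with TNBS on the standard diet. Its signals were 1011.5, 723.0 and 766.9 in the standard-diet control samples and 1467.3, 1583.3 and 2053.2 in the standard-diet TNBS samples. They were 866.9, 999.0 and 1315.4 in the curcumin-diet control samples and 946.4, 1031.5 and 1390.1 in the curcumin-diet TNBS samples. All 3 standard-diet TNBS samples were above the other 9, and the curcumin-diet groups overlapped almost entirely. The standard-diet difference was 1.02 ± 0.20, or 2.02-fold, with adjusted p = 0.0986 in limma. An array-set term gave 0.95 ± 0.19 (adjusted p = 0.0581), and the values within the sets were 0.82 and 0.96. On the curcumin diet it was 0.08 ± 0.20, with a 95% confidence interval of -0.36 to 0.53. Leaving out curcumin-diet control replicate 3 took the adjusted p of the standard-diet difference to 0.0456 in limma, and without any other single sample it did not pass.

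Between the diets after TNBS the Cd14 difference was -0.60 ± 0.20 (adjusted p = 0.323 in limma), -0.92 within array set 1 and -0.29 within set 2. Its interaction was -0.93 ± 0.29, with adjusted p = 0.309 in limma, or -0.80 ± 0.28 with an array-set term.

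Lyz2, a lysozyme of macrophages and neutrophils that cleaves bacterial cell walls, had signals of 3184.2, 2499.5 and 2689.0 in the standard-diet control samples and of 4790.7, 3417.9 and 4550.9 in the standard-diet TNBS samples. The curcumin-diet control samples were at 2564.5, 3538.3 and 3071.4 and the curcumin-diet TNBS samples at 2888.4, 2567.6 and 3043.8. The standard-diet TNBS samples lay above both their control samples and the curcumin-diet TNBS samples without overlap, and overlapped the curcumin-diet control samples at their lowest value. TNBS gave 0.60 ± 0.16 on the standard diet (adjusted p = 0.196 in limma) and -0.10 ± 0.16 on the curcumin diet. Curcumin against standard diet after TNBS gave -0.57 ± 0.16 (adjusted p = 0.223 in limma). Lyz1, the lysozyme of Paneth cells and a near-identical copy of Lyz2, stood at 2674.9, 3528.8 and 3792.8 in standard-diet control samples and at 4828.4, 4469.0 and 6576.6 in standard-diet TNBS samples on its leading probe set. Its difference there was 0.66 ± 0.18 (adjusted p = 0.216 in limma). The other 2 probe sets of Lyz1 overlapped between these groups, with 1439426_x_at at 841.8, 985.0 and 1135.8 against 1162.7, 901.9 and 982.7 and 1450822_at at 138.8, 191.9 and 193.8 against 185.4, 157.8 and 128.2. How far the probes of either gene read the other was not tested.

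Itgb2, Cd68 and Adgre1 complete the set. Itgb2 was at 388.2, 354.3 and 437.1 in the standard-diet control samples, at 652.0, 396.4 and 571.3 in the standard-diet TNBS samples, at 401.2, 397.0 and 344.5 in the curcumin-diet control samples and at 304.6, 499.9 and 511.7 in the curcumin-diet TNBS samples. The second standard-diet TNBS sample fell among the controls, and the difference was 0.42 ± 0.22 (adjusted p = 0.615 in limma). Cd68 was at 297.1, 287.9 and 302.7 in the standard-diet control samples, at 490.2, 285.6 and 385.5 in the standard-diet TNBS samples, at 315.6, 253.5 and 244.2 in the curcumin-diet control samples and at 246.5, 321.9 and 336.8 in the curcumin-diet TNBS samples. Its standard-diet control samples were close together, the same TNBS sample lay below them, and the difference was 0.34 ± 0.20 (adjusted p = 0.676 in limma).

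Adgre1, the F4/80 antigen by which mouse macrophages are stained, was at 590.1, 428.6 and 539.1 in the standard-diet control samples and at 553.3, 707.9 and 630.1 in the standard-diet TNBS samples. The curcumin-diet samples were at 720.3, 546.5 and 504.0 with control enema and at 510.6, 471.2 and 495.9 with TNBS. The TNBS samples of the curcumin diet were the most uniform and all lay below those of the standard diet, with a difference of -0.34 ± 0.17 (adjusted p = 0.528 in limma). TNBS on the standard diet gave 0.28 ± 0.17 and TNBS on the curcumin diet -0.24 ± 0.17. The order of signal across groups thus placed the curcumin-diet TNBS mean lowest for Adgre1 and Fcer1g, but neighbouring groups overlapped.

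Counted over the members, TNBS on the standard diet left 0 of 15 probe sets past the threshold, against 0.00737% of all probe sets, and 7 of 15 had an unadjusted p under 0.05 in limma, against 9.32% of all. In 7 of 15, from 5 genes, the TNBS samples were all above the control samples (Tyrobp, Cd14, Lyz2, Csf1r and 3 probe sets of Fcgr2b), against 7.01% of all probe sets. All 15 differences were above 0, against 46.4% of all probe sets. They were also all above 0 within array set 1, against 6289 of all 13575, and within array set 2, against 6786 of 13575. The median over the 15 was 0.52 with an array-set term. The members were chosen with earlier results of these data known, and several of the 15 probe sets belong to Fcgr2b or Csf1r. Counts set against all probe sets, here and in the other comparisons, are therefore a description and not a test.

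On the curcumin diet, TNBS left 0 of 15 past the threshold, against 0% of all. An unadjusted p under 0.05 was found in 0 of 15, against 2.75% of all, or in 2 of 15 with an array-set term, against 5.14% of all. TNBS and control samples separated upwards in 2 of 15, both probe sets of Csf1r, against 3.42% of all. Within array set 1 the difference was above 0 in 6 of 15, against 44.8% of all, and within set 2 in 11 of 15, against 47.0%. Curcumin against standard diet with the control enema left 0 of 15 past the threshold, against 0% of all, and 0 of 15 with an unadjusted p under 0.05, against 3.06% of all. There 8 of 15 differences were above 0, against 48.5% of all, with a median of 0.01. The 15 differences ran from -0.32 to 0.34 there.

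After TNBS, curcumin against standard diet left 0 of 15 past the threshold, against 0.0295% of all, or 0 of 15 against 0.221% with an array-set term, and 4 of 15 had an unadjusted p under 0.05 in limma, against 10.2% of all. The curcumin-diet samples were all below the standard-diet samples in 7 of 15, from 6 genes (Tyrobp, Csf1r, Adgre1, Cd14, Lyz2 and 2 probe sets of Fcgr2b), against 7.98% of all probe sets. The interaction was below 0 in 13 of 15, against 48.5% of all probe sets, with a median of -0.37. It left 0 of 15 past the threshold, against 0% of all, and 5 of 15 with an unadjusted p under 0.05, against 9.92% of all. The standard-diet TNBS samples enter both the TNBS comparison on that diet and the diet comparison after TNBS, so the opposite signs in these comparisons rest on the same 3 samples. Averaged over diets, TNBS was above control in 15 of 15 (45.8% of all) with a median of 0.29, and averaged over enemas, curcumin was below standard diet in 15 of 15 (50.4% of all) with a median of -0.18, with 0 of 15 past the threshold in either, against 0% of all for TNBS and 0.00737% for the diet.

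**Figure D3:**
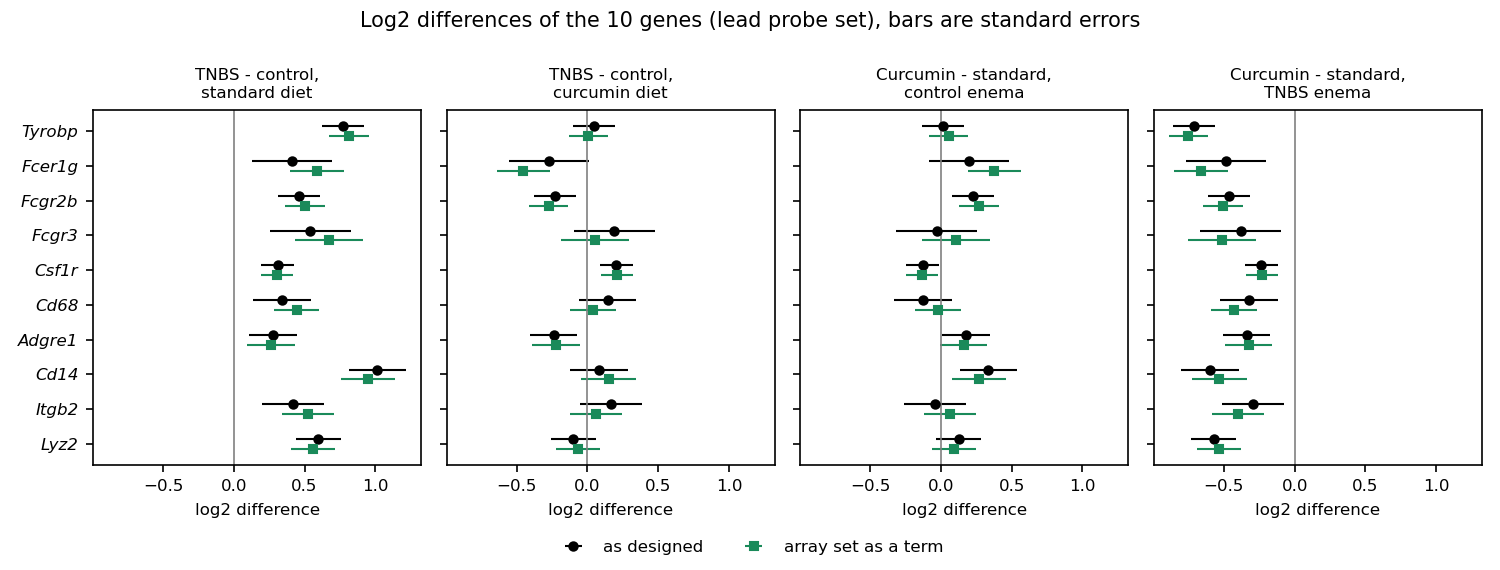
Log2 differences (x axis) of the 10 genes, 1 probe set each, in the 4 comparisons of groups, with standard errors as bars, in the model as designed (black circles) and with an array-set term (green squares). In the first panel all 10 genes lie above 0, up to 1.02 for Cd14, and in the last all 10 lie below 0, down to -0.71 for Tyrobp as designed.

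The partners of these genes were read from lists of known pathway members, given by 1 probe set a gene on either array type. Over the probe sets of both types, 0.00739% passed with TNBS on the standard diet and 0.805% between the diets after TNBS. Of the 218 probe sets behind that 0.805%, 4 were on 430A and the others on 430B, the type with the outlying arrays. With an array-set term, 0.464% and 0.221% of the 430A probe sets passed. For genes read on 430B, the fit named by that term has no such term and leaves out the outlying arrays. Of 21 genes listed as partner receptors and kinases of the adaptors, 15 were tested, and 0 passed as designed with TNBS on the standard diet. Under the array-set term 1 was higher and 0 lower. This was Clec4d, a C-type lectin receptor that signals through the gamma chain, with signals of 158.0, 210.0 and 259.7 in standard-diet control samples and 517.2, 241.3 and 358.0 in standard-diet TNBS samples, and a difference of 1.00 ± 0.18 with adjusted p = 0.0485 in limma under that term. The signals overlap, and the call held in 2 of 12 runs that each left out 1 sample, those without standard-diet TNBS replicate 2 or curcumin-diet control replicate 3, with adjusted p up to 0.301 in the others. The list's median was 0.22, against -0.01 over the 12911 genes tested. Of 5 other Fc receptors tested, 0 passed, and with TNBS on the standard diet 2 were above 0, with a median of -0.05. Fcgr4, an activating IgG receptor, had the smallest p there, at 253.2, 220.7 and 234.3 in standard-diet control samples and 631.7, 378.5 and 348.6 in standard-diet TNBS samples, with a difference of 0.85 ± 0.23 (adjusted p = 0.206 in limma).

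In the lipopolysaccharide receptor pathway, 14 of 17 genes were tested. Lbp, the serum protein that loads lipopolysaccharide onto CD14, was at 327.9, 287.6 and 334.0 in standard-diet control samples and at 892.3, 635.4 and 871.9 in standard-diet TNBS samples. It was at 284.1, 375.9 and 512.0 in curcumin-diet control samples and at 261.1, 243.1 and 234.4 in curcumin-diet TNBS samples, below every other sample. Lbp fell between the diets after TNBS, with a difference of -1.62 ± 0.20 and adjusted p = 0.0139 in limma, and was the 1 gene of this list past the threshold. The call was lost without standard-diet TNBS replicate 1 (adjusted p = 0.0916) or 3 (0.136), without curcumin-diet TNBS replicate 1 (0.0504), 2 (0.141) or 3 (0.0632), and with median centring (0.0562), while the difference ran from -1.78 to -1.54 over the 12 runs without a sample. With TNBS on the standard diet its difference was 1.28 ± 0.20 with adjusted p = 0.0593 in limma as designed and 0.0389 with an array-set term, a call that held in 3 of 12 runs without a sample, with adjusted p up to 0.301. A second, 430B probe set of Lbp was at 226.2, 106.2 and 238.2 in the curcumin-diet TNBS samples and at 299.2, 59.7 and 339.9 in the standard-diet TNBS samples, which overlap. The median of the 14 was 0.13 with TNBS on the standard diet and -0.13 between the diets after TNBS.

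Of 12 genes listed as ligands of the CSF1 receptor, related cytokine receptors and myeloid transcription factors, 10 were tested. With TNBS on the standard diet 0 passed. After TNBS, 1 was lower with curcumin, Csf2rb, the shared beta chain of the receptors for GM-CSF, IL-3 and IL-5. On 430B it was at 2874.4, 2375.0 and 3199.6 in the standard-diet TNBS samples and at 1037.1, 1138.6 and 749.6 in the curcumin-diet TNBS samples, with a difference of -1.53 ± 0.21 and adjusted p = 0.00606 in limma. Without the 2 outlying 430B arrays, which leave 1 curcumin-diet TNBS array that is assumed to vary like the others, it was -1.42 ± 0.27 with adjusted p = 0.132. The call was also lost without standard-diet TNBS replicate 3 (adjusted p = 0.0527). The 430A probe set of Csf2rb lay below the filter, at 295.8, 16.2 and 158.7 in the standard-diet TNBS samples and at 21.1, 78.0 and 36.0 in the curcumin-diet TNBS samples, which overlap. Among 7 tested partners and ligands of the beta2 integrin and 13 tested lysosomal and oxidase genes, 0 passed in either comparison, with medians of 0.27 and 0.23 for TNBS on the standard diet. The smallest p was that of Itgal, the LFA-1 alpha chain, at 0.84 ± 0.30 in the first list, and that of Lyz1 in the second.

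Markers of other cell types were read in the same way. Of 15 resident macrophage markers 12 were tested and 0 passed, with 8 above 0 and a median of 0.16 for TNBS on the standard diet. Their summed signal was 6147 to 7355 in standard-diet control samples, 7116 to 8446 in standard-diet TNBS samples, 5710 to 7506 in curcumin-diet control samples and 6351 to 6777 in curcumin-diet TNBS samples. C1qb, a chain of complement C1q that macrophages make, had the smallest p with TNBS on the standard diet, at 0.82 ± 0.19 (adjusted p = 0.138 in limma). Its other 2 probe sets overlapped between those groups, with 1434366_x_at at 327.8, 486.5 and 370.1 against 535.9, 285.5 and 343.9 and 1437726_x_at at 122.5, 174.2 and 195.1 against 342.2, 82.4 and 119.4. Of 8 blood monocyte markers only 3 were tested, with a median of 0.90, and 0 passed.

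The tested neutrophil markers had larger median differences. Of 14 such markers 12 were on the arrays and 6 were tested, with a median of 0.97 for TNBS on the standard diet and of -1.07 between the diets after TNBS. Their summed signal was 1132 to 1202 in standard-diet control samples, 1998 to 2897 in standard-diet TNBS samples, 1015 to 1479 in curcumin-diet control samples and 878.4 to 1333 in curcumin-diet TNBS samples. The filter took the mean over all 12 samples, and over the 9 outside standard-diet TNBS the means of Mmp8 and Csf3r lay below its cut. Both were therefore tested only through the group where they are high, and the medians and sums include them. Their calls below come from comparisons that use that same group, so they are given as values and not as support. As designed, 0 of 6 passed in either comparison. Under the array-set term, 3 of 6 rose with TNBS on the standard diet (Ngp, Mmp8 and Mmp9), against 0.464% of all 430A probe sets called in either direction. Between the diets after TNBS 2 of 6 fell (Ngp and Csf3r), against 0.221% called in either direction. All 3 calls with TNBS on the standard diet were lost when any 1 of the standard-diet control samples or standard-diet TNBS replicate 1 or 3 was left out, with adjusted p up to 0.301 in limma, and they held in 6 (Ngp), 5 (Mmp8) and 2 (Mmp9) of the 12 such runs. Between the diets after TNBS the call of Ngp held in 8 and that of Csf3r in 4 of 12, and both were lost with replicate 1 or 3 of the standard-diet TNBS samples or replicate 1 or 2 of the curcumin-diet TNBS samples left out. The alarmin genes S100a8 and S100a9, which neutrophils express strongly, lay below the filter because they were low in 9 of the 12 samples. S100a8 was at 18.5, 39.5 and 113.6 in standard-diet control samples, at 2457.6, 1431.0 and 2988.6 in standard-diet TNBS samples, at 52.0, 12.3 and 124.9 in curcumin-diet control samples and at 42.6, 30.4 and 212.3 in curcumin-diet TNBS samples. The other 4 markers below the filter, Cxcr2, Camp, Elane and Prtn3, overlapped between the standard-diet groups. Cxcr2, the receptor that guides neutrophils to CXC chemokines, was at 134.1, 78.3 and 55.8 in standard-diet control and at 64.3, 117.5 and 59.3 in standard-diet TNBS samples, with its highest value, 186.4, in a curcumin-diet TNBS sample. The summed signal of the 6 tested markers was highest in standard-diet TNBS samples, and its part in the members' differences was not tested.

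Markers that would report a different cut of tissue also varied. The summed signal of 5 pancreatic acinar genes ran from 2093 to 74283 over the 12 samples, with all groups overlapping. That of 4 adipocyte genes was 7776 to 8239 in standard-diet control samples, 2974 to 7020 in standard-diet TNBS samples, 5078 to 7940 in curcumin-diet control samples and 5647 to 8570 in curcumin-diet TNBS samples, and it was lower in the standard-diet TNBS samples than in their controls. The sum over 13 colon epithelium genes was 160398 to 176387 in standard-diet control samples, 165877 to 178280 in standard-diet TNBS samples, 153649 to 192672 in curcumin-diet control samples and 131453 to 168187 in curcumin-diet TNBS samples, whose median of 138790 was below every sample of the other groups. The part of these tissues in the results was not tested. Median differences of dendritic cell, mast cell and B cell markers with TNBS on the standard diet were 0.04, 0.04 and 0.00, with 0 past the threshold, 2 T and NK cell markers were tested with a median of 0.18, and 0 of the eosinophil markers passed the filter.

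**Figure D4:**
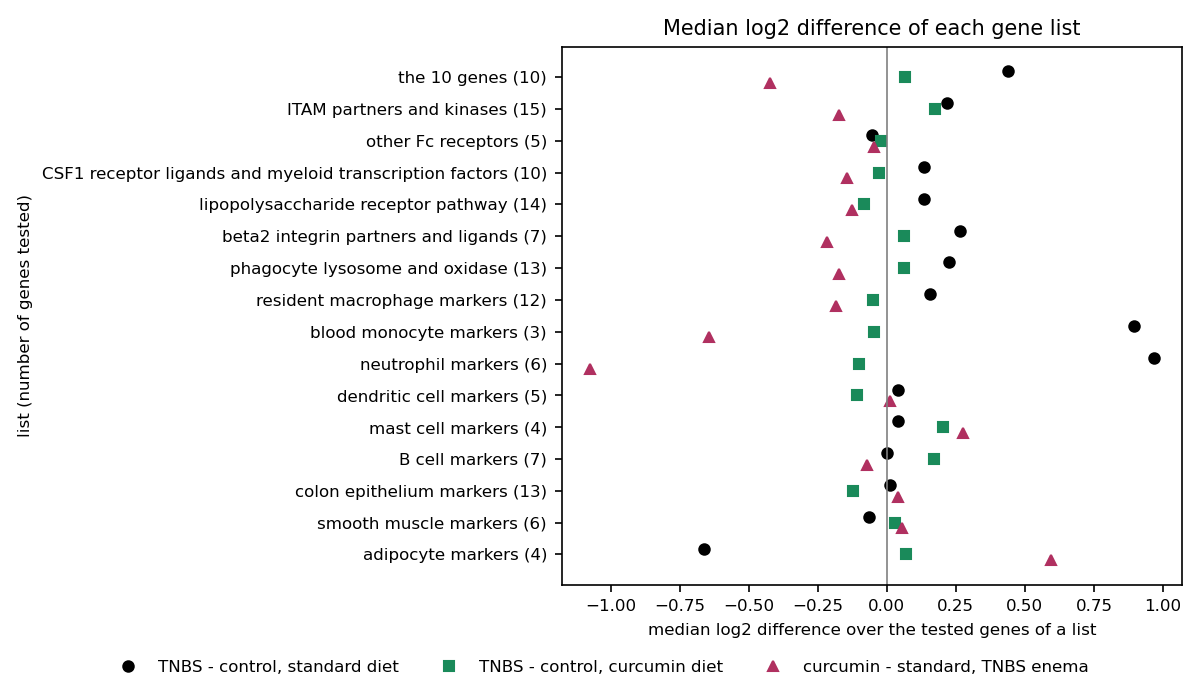
Median log2 difference (x axis) over the tested genes of each list (y axis, with the number of genes tested, lists of 3 or more, pancreatic genes left out) for TNBS against control on the standard diet (black circles), the same on the curcumin diet (green squares) and curcumin against standard diet after TNBS (red triangles), in the model as designed. The 10 genes stand at 0.44, 0.06 and -0.42, and the neutrophil markers at 0.97, -0.10 and -1.07. The neutrophil list includes Mmp8 and Csf3r, which passed the filter only through the standard-diet TNBS samples.

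Genes whose signal followed that of Tyrobp most closely were read from the 8348 genes led by a 430A probe set, by Pearson correlation of log2 values over the 12 samples, as a description. The 5 highest outside the member list were Itm2a, an integral membrane protein (r = 0.931), the gelatinase Mmp9 (r = 0.902), the siderophore-binding Lcn2 (r = 0.901), Reg3d (r = 0.898), a member of the Reg family of lectins, and ceruloplasmin, Cp (r = 0.893). All points share the arrays and the group structure. Over the 9 samples left without the standard-diet TNBS group, the same 5 had r = 0.483, -0.0208, 0.114, 0.564 and 0.462. Among the members, likeness to Tyrobp was highest for Fcgr2b, with r = 0.763, which ranked 81 of 8348, and lowest for Adgre1, with r = 0.371 and rank 1067. Over the 9 samples without the standard-diet TNBS group, r of the members ran from -0.470 (Lyz2) to 0.368 (Fcer1g). It was 0.272 for Fcgr2b and -0.0995 for Adgre1.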

How the data were processed

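The deposited values are probe set signals, an intensity on a linear scale, that the authors computed in GCOS according to the submitters' processing notes; its version and the genome build are not given in the sources used here. The deposited intensity of every 430A array has a 2% trimmed mean between 500.1 and 500.2, which shows a common scaling, and no further normalization was applied. Detection calls were not used here. Names come from the platform annotation: 20380 probe sets of 430A carry 1 gene symbol, 691 several and 1555 none, and only those with 1 were named.

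A pseudocount of 16 was added and log2 taken. Probe sets with a mean log2 value above the 40th percentile of their array type were tested, with limma 3.58.1 in R 4.3.3 and a mean for each of the 4 groups (lmFit, eBayes with an intensity trend, 8 residual degrees of freedom). Two-sided p-values were adjusted after Benjamini and Hochberg over all tested probe sets of 1 array type, with 0.05 as the threshold. The 7 contrasts were TNBS on each diet, curcumin with each enema, their interaction and both averages. The calculation was tested on simulated data. Arrays whose first principal component on 430B lay over 5 median absolute deviations from the median were called outlying (2 arrays).

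Every member is named whatever its p. A gene is led by its tested probe set with the highest mean, 430A before 430B. Of each other list, up to 3 genes past the threshold were to be named, or else those with the smallest p, as far as there was room; S100a8, Lyz1 and probe sets that differ from the leading one were picked once their values were known. The likeness rule takes the 5 genes with the highest Pearson r to Tyrobp. Members and lists were chosen with earlier results of these data known. Alternatives were pseudocounts of 1 and 64, no filter and the 60th percentile, quantile normalization, median centring, no trend, array weights, only the arrays compared, the array set, 430B without the outlying arrays, a threshold of 0.01 and each sample left out in turn. Repeating several of these with an array-set term, and for the named genes outside the set, was decided after seeing the data. Promoters were searched with Python 3.11.15 and pandas 2.3.3.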

Additional observations from a re-analysis of the deposited data

How the results depend on the processing

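As designed, the count of member probe sets past the threshold was 0 in all 7 comparisons. It stayed 0 under every alternative except the following. Array weights gave 3 for TNBS on the standard diet (Cd14, Lyz2 and Tyrobp), 5 for curcumin against standard diet after TNBS (Adgre1, Cd14, Fcgr2b, Lyz2 and Tyrobp) and 4 for the interaction (Cd14, Fcgr2b, Lyz2 and Tyrobp). Of all probe sets, 1.44%, 12.0% and 5.01% passed there, against 0.00737%, 0.0295% and 0% as designed. That setting gave curcumin-diet TNBS replicate 2 a weight of 6.99 and no other array more than 1.71, and the cause of the higher counts was not tested. An array-set term gave 1 for TNBS on the standard diet (Tyrobp). Leaving out each sample in turn gave 0 to 1 for TNBS on the standard diet and 0 for the other 6 comparisons, the 1 being Cd14 without curcumin-diet control replicate 3.

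In the model with an array-set term, the count of 1 for TNBS on the standard diet fell to 0 with quantile normalization, median centring and no intensity trend, and ran from 0 to 3 over the 12 runs that each left out a sample. Tyrobp passed in 4 of those 12, with a log2 difference of 0.68 to 0.88. The count of 0 for curcumin against standard diet after TNBS became 1 with a pseudocount of 64 (Tyrobp) and ran from 0 to 2 with a sample left out. The cause was not tested. For Tyrobp as designed, a sample left out moved the TNBS difference on the standard diet between 0.65 and 0.87 and the diet difference after TNBS between -0.80 and -0.65. Differences of single probe sets that changed sign lay within their standard error in at least 1 of the settings compared. No paired analysis was possible because the sample numbers run from 1 to 12 and no number is shared between groups. With 3 arrays a group, differences well above the median standard error of 0.20 could also be missed. As designed, the Cd14 difference of 1.02 with TNBS on the standard diet was not called. In the simulated data, 57 of 100 changes of 1 in log2 were recovered in that comparison, with 8 false calls. Those data held 100 changes of 1 and 100 of 2 at once, with independent noise and no array sets. So many changes ease the adjustment of p, whereas 1 of 13575 probe sets passed in the deposited data. The share recovered therefore does not give the power for Cd14.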
